A study of Saccharomyces cerevisiae with 8 samples.

Results

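The 9 genes described here encode enzymes that carry out the tricarboxylic acid (TCA) cycle or a reaction of it in Saccharomyces cerevisiae. They were taken by symbol from a table of 6016 protein-coding genes and are CIT1, CIT2, ACO1, IDH1, IDH2, KGD1, KGD2, FUM1 and MDH1. All 9 were found. The rule that takes them uses symbols alone and no measured value. The cells were haploid yeast of strain BY4741 carrying the reporter mCherry(K14UAG), a fluorescent protein gene interrupted by a premature stop codon, together with a guide RNA cassette for targeted pseudouridylation. Pseudouridylation converts a uridine in RNA to pseudouridine. In the cells called targeted, the cassette held PTC(K14ΨAG)-gRNA, named for the premature stop codon, and tRNA_Lys(CUΨ36)-gRNA, named for a lysine tRNA. Control cells had the same strain and reporter with control gRNAs. Both were grown to mid-log phase in synthetic dextrose medium without leucine and uracil. Each was measured by ribosome profiling (RIBO-seq), which sequences the mRNA fragments protected by ribosomes (footprints), and by RNA-seq of the same lysate, with 2 libraries per assay and guide set, 8 in all. The comparison of guide sets asks whether cells with the targeted guide RNAs differ in the mRNA or in the translation of their own genes.

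The TCA cycle oxidises the acetyl group of acetyl-CoA to carbon dioxide in the mitochondrial matrix and passes the electrons to the respiratory chain. Its intermediates also supply biosynthesis, 2-oxoglutarate (alpha-ketoglutarate) being the carbon skeleton of glutamate and a precursor of lysine in yeast. In yeast growing on glucose, respiration is partly repressed and the cycle serves biosynthesis to a large extent. When mitochondrial function is impaired, the retrograde pathway, which acts through the factors Rtg1 and Rtg3, sustains the early steps of the cycle and raises CIT2.

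Summed counts were 21073013 to 61908589 per RNA library and 8080039 to 15253540 per footprint library. Rows of transposon genes held 69.8 to 72.9% of the RNA counts and 20.6 to 23.2% of the footprint counts. Each of the 9 genes had 863 to 28696 reads in every RNA library and 929 to 21265 in every footprint library. Counting error alone was therefore at most 3.40% of a value, the largest being for KGD2. The mating type a markers MFA1, MFA2, STE2 and BAR1 had at least 1084 reads in every library, whereas the alpha markers MF(ALPHA)1 and MF(ALPHA)2 had at most 8 reads and STE3 had 23 to 88. MET17, which is deleted in BY4741, had 0 or 1 read in each library. Separate cultures for the replicates are not stated in the labels. The p-values therefore reflect only how far these libraries differ, and that spread could be technical. In bulk lysates, a change in the share of cells and a change per cell cannot be told apart.

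All 9 coding sequences were without an intron, with a genomic span equal to the coding length, and no other annotated gene overlapped them (build R64). Citrate synthase of mitochondria, CIT1 (YNR001C), lies on chromosome 14 at 629622 to 631061, minus strand. Its peroxisomal paralog CIT2 (YCR005C) lies on chromosome 3 at 120946 to 122328, minus strand. Aconitase, ACO1 (YLR304C), lies on chromosome 12 at 735212 to 737548, minus strand, and its nearest neighbour on the lower side is MET17, 1335 bases away. The subunits of the NAD-dependent isocitrate dehydrogenase are IDH1 (YNL037C, chromosome 14, 557920 to 559002, minus strand) and IDH2 (YOR136W, chromosome 15, 580250 to 581359, plus strand). The 2-oxoglutarate dehydrogenase complex has KGD1 (YIL125W, chromosome 9, 122689 to 125733, plus strand) as its decarboxylating subunit. KGD2 (YDR148C, chromosome 4, 753675 to 755066, minus strand) is its succinyltransferase subunit. Fumarase, FUM1 (YPL262W), lies on chromosome 16 at 47336 to 48802, plus strand. Mitochondrial malate dehydrogenase, MDH1 (YKL085W), lies on chromosome 11 at 279123 to 280127, plus strand. Coding lengths ran from 1005 bases for MDH1 to 3045 bases for KGD1.

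The mRNA levels of the 9 enzymes spanned a wide range, with aconitase highest and the succinyltransferase KGD2 lowest in every library. Levels are given as the authors' RPKM, reads scaled to coding length and library size, which can be compared between genes. ACO1 mRNA was at 179.6 and 205 RPKM in targeted cells, against 197 and 199 RPKM in control cells, and ranked between 313 and 340 among the 6016 genes. The libraries of the 2 guide sets overlapped, the targeted libraries lying on either side of the control ones. IDH2 mRNA followed at 95.3 and 100.4 RPKM in targeted cells and 102 and 106 RPKM in control cells. Its partner subunit IDH1 had 61.7 and 61.2 RPKM in targeted cells and 62.7 and 64.1 RPKM in control cells. CIT2 mRNA was at 91.3 and 85.4 RPKM in targeted cells and 87.7 and 115 RPKM in control cells, so that control replicate 2 stood above the other 3 libraries. CIT1 mRNA had 60.4 and 61.8 RPKM in targeted cells against 62.5 and 69.1 RPKM in control cells. KGD1 mRNA had 31.6 and 33.3 RPKM in targeted cells and 32.6 and 36.0 RPKM in control cells. KGD2 mRNA had 23.7 and 28.9 RPKM in targeted cells and 28.0 and 29.1 RPKM in control cells. The targeted libraries were thus farther apart than the control libraries for KGD2, the gene with the fewest RNA reads. FUM1 mRNA was at 43.9 and 41.8 RPKM in targeted cells and 44.3 and 48.8 RPKM in control cells. MDH1 mRNA was at 35.5 and 43.3 RPKM in targeted cells and 40.3 and 42.3 RPKM in control cells. For CIT1, IDH1, IDH2 and FUM1, both targeted RPKM lay below both control RPKM. The share of all genes for which this holds in RPKM was not computed. In counts normalised between libraries, given below, it held for FUM1 alone of the 9 genes. In the order of mean mRNA levels, ACO1, IDH2, CIT2, CIT1, IDH1, FUM1, MDH1, KGD1, KGD2, the ranges of neighbours over the 4 libraries overlapped between IDH2 and CIT2, between CIT1 and IDH1, between FUM1 and MDH1 and between MDH1 and KGD1. The other neighbours in that order did not overlap.

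**Figure D1:**
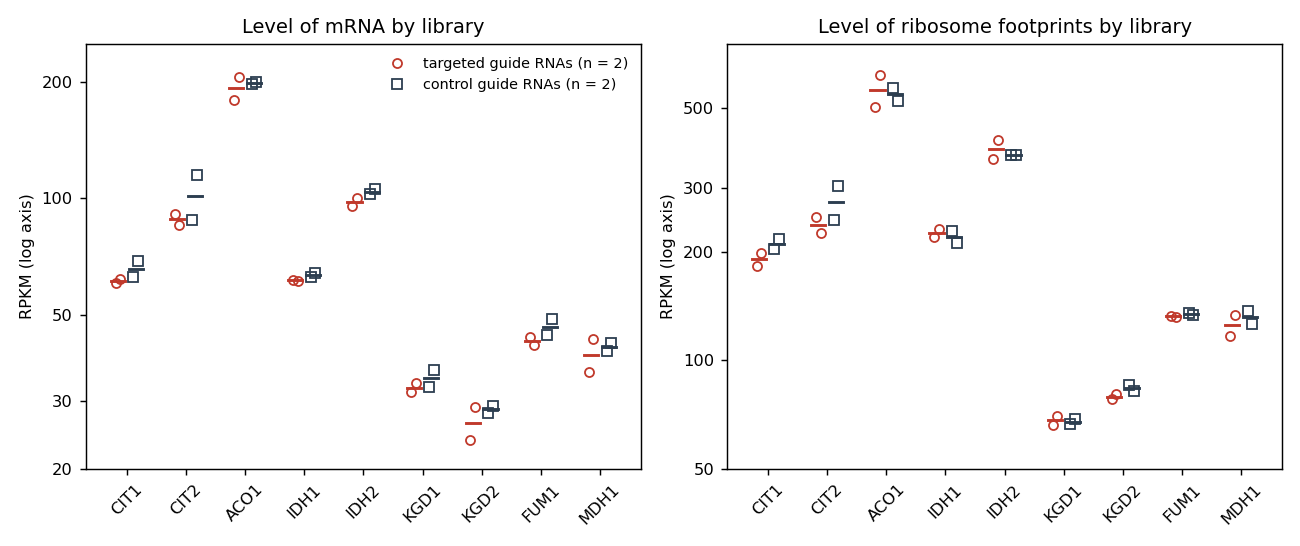
Level of mRNA (left) and of ribosome footprints (right) of the 9 enzymes, in RPKM on log axes, with 1 point per library (circles, targeted guide RNAs; squares, control guide RNAs) and a bar at each group's mean. ACO1 was highest in both assays, KGD2 was lowest in mRNA and KGD1 was lowest in footprints.

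Footprint levels followed a similar order, with the 2-oxoglutarate dehydrogenase subunits trading places at the lower end. ACO1 had 501 and 615 footprint RPKM in targeted cells, against 568 and 522 footprint RPKM in control cells. IDH2 had 359.7 and 407 footprint RPKM in targeted cells and 370.03 and 370.04 footprint RPKM in control cells. The targeted libraries lay on either side of the control libraries for ACO1, as in mRNA, and for IDH2, unlike in mRNA. IDH1 had 219 and 231 footprint RPKM in targeted cells and 227 and 211 footprint RPKM in control cells. CIT2 had 249 and 225 footprint RPKM in targeted cells and 245 and 304 footprint RPKM in control cells, with control replicate 2 standing apart as it did in mRNA. CIT1 had 183 and 197 footprint RPKM in targeted cells and 203 and 216 footprint RPKM in control cells. The deposited RPKM are scaled to a library total that exceeded the summed counts by a different amount in each group, 1.052 and 1.044 times in targeted footprint libraries and 1.004 and 1.005 times in control footprint libraries. In RNA libraries the total was 1.019 and 1.018 times the summed counts in targeted cells and 1.006 and 1.007 times in control cells. This lowers targeted RPKM relative to control RPKM, so changes between guide sets were taken from counts instead. FUM1 had 132.4 and 132.1 footprint RPKM in targeted cells and 135 and 133 footprint RPKM in control cells. MDH1 had 117 and 134 footprint RPKM in targeted cells and 137 and 126 footprint RPKM in control cells. KGD2 had 78.1 and 80.6 footprint RPKM in targeted cells and 85.5 and 82.2 footprint RPKM in control cells. KGD1 had 66.1 and 70.3 footprint RPKM in targeted cells and 66.6 and 68.8 footprint RPKM in control cells. The range of KGD1 lay below that of KGD2 over the 4 footprint libraries, and above it over the 4 RNA libraries.

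Proportions between subunits of 1 enzyme, and between the citrate synthases, were compared within libraries. The ratio of IDH1 to IDH2 in mRNA RPKM was 0.647 and 0.610 in targeted cells and 0.612 and 0.607 in control cells. In footprint RPKM it was 0.610 and 0.567 in targeted cells and 0.615 and 0.571 in control cells. IDH2 therefore exceeded IDH1, the other subunit of the same enzyme, in all 8 libraries. The ratio of KGD2 to KGD1 was 0.750 and 0.868 in mRNA of targeted cells and 0.858 and 0.808 in mRNA of control cells. In footprints it was 1.18 and 1.15 in targeted cells and 1.28 and 1.20 in control cells. The peroxisomal CIT2 exceeded the mitochondrial CIT1 in all 8 libraries, by 1.51 and 1.38 times in mRNA of targeted cells and 1.40 and 1.66 times in mRNA of control cells. In footprints the excess was 1.36 and 1.14 times in targeted cells and 1.21 and 1.41 times in control cells. CIT1 and CIT2 are similar in sequence, and how reads matching both were counted is not given in the sources used here, so values of either may hold reads of the other.

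Between guide sets, none of the 9 enzymes passed the test in mRNA. In CPM, counts scaled to library size, with TMM factors (normalised CPM), CIT1 averaged 91.9 ± 3.60 in targeted cells and 92.8 ± 1.16 in control cells (SD, n = 2 each), a log2 difference of -0.01 ± 0.06 (SE). CIT2 averaged 128 ± 3.05 normalised CPM in targeted cells and 137 ± 17.8 in control cells, a log2 difference of -0.10 ± 0.09. The CIT2 value was carried by control replicate 2, at 149 normalised CPM against 124 in control replicate 1, and without that library the log2 difference was 0.04. ACO1 averaged 470 ± 55.1 normalised CPM in targeted cells and 455 ± 23.2 in control cells, a log2 difference of 0.05 ± 0.09. The remaining log2 differences were 0.04 ± 0.06 for IDH1, 0.00 ± 0.07 for IDH2, 0.01 ± 0.07 for KGD1, -0.04 ± 0.10 for KGD2, -0.03 ± 0.06 for FUM1 and 0.01 ± 0.10 for MDH1. The guide sets overlapped in normalised mRNA CPM for 8 of the 9 genes. FUM1 was the exception, at 66.2 and 65.1 in targeted cells against 66.4 and 67.4 in control cells, a difference within its SE. Over all genes tested for mRNA, the guide sets did not overlap for 32.3% (1847 of 5712), against 1 of the 9 enzymes. By edgeR's quasi-likelihood test, 0 of 9 enzymes passed in either direction, with adjusted p of 0.973 to 0.999, and 0 of 9 had an unadjusted p under 0.05. DESeq2 called 0 of 9 as well. Over all genes tested for mRNA, 0.368% were called higher (21 of 5712) and 0.0% lower, and the count of 21 fell to 9 without targeted replicate 1, 13 without targeted replicate 2 and 0 without control replicate 1. The median log2 difference of the 9 enzymes was 0.0012, beside -0.0001 over all genes tested. The 95% intervals of the 9 genes reached no further than a fold of 0.812, for CIT2, on the lower side and 1.20, for ACO1, on the upper side.

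Footprints of the 9 enzymes did not pass the test either. CIT2 averaged 344 ± 19.2 normalised footprint CPM in targeted cells and 379.6 ± 48.4 in control cells, a log2 difference of -0.14 ± 0.09. Its control replicate 2 was again the highest library, at 414 against 345 in control replicate 1, and without it the log2 difference was -0.01. CIT1 averaged 288 ± 20.4 normalised footprint CPM in targeted cells and 302 ± 6.37 in control cells, with a log2 difference of -0.07 ± 0.07. ACO1 averaged 1371 ± 220.4 normalised footprint CPM in targeted cells and 1277 ± 107 in control cells, with a log2 difference of 0.10 ± 0.10. IDH2 averaged 447 ± 46.1 normalised footprint CPM in targeted cells and 412 ± 10.1 in control cells, with a log2 difference of 0.12 ± 0.08. For both genes targeted replicate 2 was the highest of the 4 libraries and targeted replicate 1 lay within the range of the control values. IDH1 had a log2 footprint difference of 0.10 ± 0.08, KGD1 of 0.08 ± 0.07, FUM1 of 0.05 ± 0.07, MDH1 of 0.00 ± 0.09 and KGD2 of -0.01 ± 0.08. KGD1 was the only gene of the 9 whose guide sets did not overlap in normalised footprint CPM, at 209 and 227.5 in targeted cells against 206.9 and 206.3 in control cells. Over all genes tested for footprints, the guide sets did not overlap for 31.3% (1710 of 5461). By edgeR's quasi-likelihood test, 0 of 9 passed in either direction, each with an adjusted p of 0.999 and none with an unadjusted p under 0.05, and DESeq2 called 0 of 9. Without targeted replicate 1, which leaves 1 targeted library, ACO1 and IDH2 passed, at log2 differences of 0.26 and 0.22. That fit also called more of all genes, so these calls are not shown to be particular to the enzymes. Over all genes tested for footprints, 0.586% were called higher (32 of 5461) and 0.0% lower. With any 1 library left out, genes were called in both directions, so the calls over all genes depended on single libraries. The median log2 footprint difference of the 9 enzymes was 0.05, beside -0.0013 over all genes tested. The 95% intervals reached a fold of 0.792 for CIT2 on the lower side and 1.26 for ACO1 on the upper side.

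**Figure D2:**
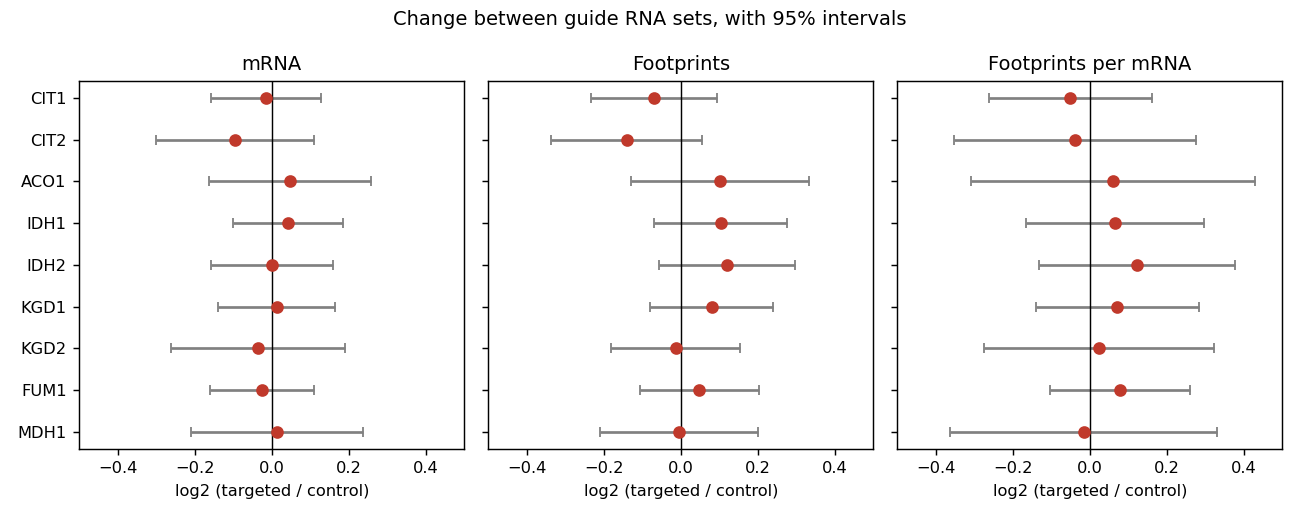
Log2 difference between targeted and control cells in mRNA, footprints and footprints per mRNA for the 9 enzymes, with 95% intervals from edgeR (2 libraries per group and assay). Every interval includes 0, and the widest run from -0.36 for MDH1 to 0.43 for ACO1 in footprints per mRNA.

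Most of the 9 enzymes were higher in targeted replicate 2 than in targeted replicate 1. In normalised mRNA CPM, targeted replicate 2 was above targeted replicate 1 for 7 of the 9 enzymes, with a median log2 difference of 0.12 and a range of -0.05 to 0.33. Control replicate 2 was above control replicate 1 in mRNA for 4 of the 9, with a median of -0.05 and a range of -0.10 to 0.27. In footprints, targeted replicate 2 was above targeted replicate 1 for 8 of the 9, with a median of 0.12 and a range of -0.11 to 0.33. In control footprints, replicate 2 was above replicate 1 for 2 of the 9, with a median of -0.07 and a range of -0.17 to 0.26. The share of all genes with the same directions was not computed, so these counts are not shown to be particular to the 9 enzymes. In both assays CIT2 was lower in targeted replicate 2 than in targeted replicate 1, and of the 9 genes it was the one most raised in control replicate 2. The 9 enzymes held 0.380 and 0.417% of the counts outside transposon rows in targeted RNA libraries and 0.399 and 0.391% in control RNA libraries. In footprints they held 0.402 and 0.459% in targeted libraries and 0.428 and 0.412% in control libraries. In both assays the control libraries lay between the targeted ones.

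**Figure D3:**
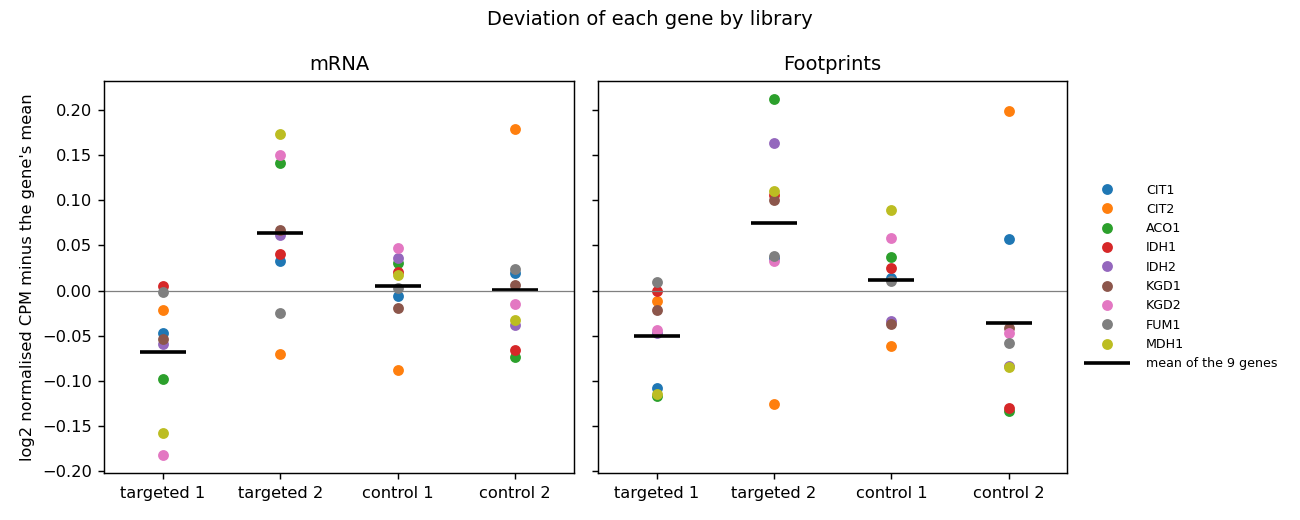
Deviation of each enzyme in each library from its mean over the 4 libraries of the assay, in log2 normalised CPM (points, 1 colour per gene; bars, mean of the 9 genes). The mean of the 9 genes was lowest in targeted replicate 1 and highest in targeted replicate 2 in both assays, and CIT2 was highest in control replicate 2.

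Footprints per mRNA, the footprint RPKM divided by the mRNA RPKM of the same lysate, were above the median gene for 8 of the 9 enzymes and near it for KGD1. Among 3146 genes outside transposon rows that reached 10 CPM in every library, the median ratio was 2.11 and 2.14 in targeted lysates and 2.13 and 2.02 in control lysates. IDH2 had ratios of 3.77 and 4.06 in targeted lysates and 3.616 and 3.504 in control lysates, at percentiles 88.0 to 92.6 of those genes. IDH1 had ratios of 3.56 and 3.77 in targeted lysates and 3.63 and 3.30 in control lysates, at percentiles 86.0 to 89.1. Both isocitrate dehydrogenase subunits thus stood near the upper end of the genes compared in each of the 4 lysates. MDH1 had ratios of 3.29 and 3.09 in targeted lysates and 3.40 and 2.98 in control lysates. CIT1 had ratios of 3.02 and 3.20 in targeted lysates and 3.24 and 3.13 in control lysates. KGD2 had ratios of 3.29 and 2.79 in targeted lysates and 3.06 and 2.83 in control lysates. These 3 genes lay between percentiles 69.1 and 84.6 over the 4 lysates. FUM1 had ratios of 3.01 and 3.16 in targeted lysates and 3.05 and 2.73 in control lysates. ACO1 had ratios of 2.787 and 2.997 in targeted lysates and 2.88 and 2.62 in control lysates. CIT2 had ratios of 2.73 and 2.63 in targeted lysates and 2.79 and 2.65 in control lysates, at percentiles 65.2 to 70.1. KGD1 had ratios of 2.09 and 2.11 in targeted lysates and 2.05 and 1.91 in control lysates, at percentiles 46.1 to 49.3. In the order IDH2, IDH1, MDH1, CIT1, KGD2, FUM1, ACO1, CIT2, KGD1, each gene's range over the 4 lysates overlapped that of the next, except between CIT2 and KGD1.

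**Figure D4:**
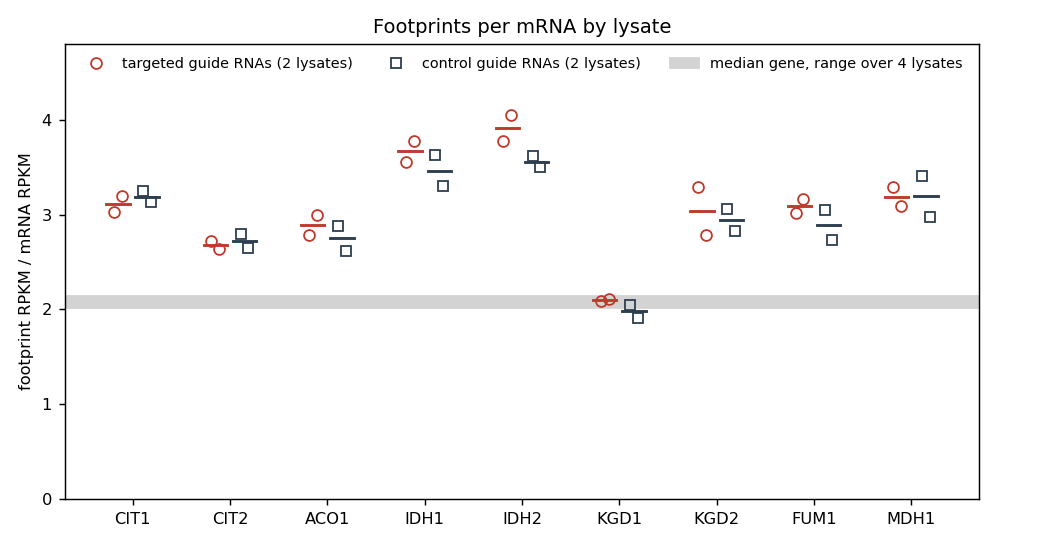
Footprint RPKM over mRNA RPKM of the 9 enzymes in each lysate (circles, targeted guide RNAs; squares, control guide RNAs; short bars, group means; grey band, range of the median of 3146 genes over the 4 lysates). KGD1 lies within the grey band or, in control replicate 2, below it, and the other 8 enzymes lie above it in all 4 lysates.

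Tested on counts with edgeR, 8 of the 9 enzymes had footprints per mRNA above the TMM-scaled average in targeted cells, and the count was 8 of 9 in control cells too. IDH2 was highest, with a log2 ratio of 0.98 ± 0.10 (SE) and an edgeR adjusted p of 5.5e-05 in targeted cells, and of 0.86 ± 0.05 with adjusted p of 5.8e-07 in control cells. CIT2 was the lowest of those called, at 0.43 ± 0.08 with edgeR adjusted p of 0.00172 in targeted cells and 0.47 ± 0.10 with adjusted p of 0.00209 in control cells. KGD1 did not pass, at 0.08 ± 0.08 with edgeR adjusted p of 0.434 in targeted cells and 0.01 ± 0.04 with adjusted p of 0.877 in control cells. The sign of KGD1 depended on the genes kept, its log2 ratio being -0.05 in targeted and -0.12 in control cells when genes under 10 CPM were left out, the second with an edgeR adjusted p of 0.0346. Such ratios were common among all genes. Of all genes tested in targeted cells, 34.8% were called above the average and 36.3% below it, and of those tested in control cells, 36.5% were called above and 38.7% below. The median log2 ratio of the 9 enzymes was 0.63 in targeted and 0.58 in control cells, beside -0.01 and -0.02 over all genes tested. Scaling by library size alone, which places the transposon rows in the total, shifted the median of all genes to 1.02 in targeted and 0.95 in control cells and the 9 enzymes with it, KGD1 then also being called above 0.

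The ratio moved with coding length among genes in general. Across the 3146 genes, Spearman's rho between the ratio and coding length was -0.756 and -0.752 in targeted lysates and -0.750 and -0.750 in control lysates, and rho between the ratio and the mRNA RPKM was 0.678 and 0.653 in targeted lysates and 0.680 and 0.673 in control lysates. These are descriptions across genes of 1 lysate, which are not independent. The ratio shares the mRNA RPKM with the measure on the other axis, whereas coding length cancels out of the ratio. The 3 shortest of the 9 coding sequences, those of MDH1, IDH1 and IDH2, had the 3 highest mean ratios, and the longest, that of KGD1, had the lowest. The part of length in the ratios of the 9 enzymes was not tested. Within the 2-oxoglutarate dehydrogenase complex, KGD2 had more footprints per mRNA than KGD1 in 4 of 4 lysates, by 0.55 ± 0.11 on the log2 scale (SD, n = 4). This pair was singled out after its values were seen, and its coding lengths are 1392 bases for KGD2 and 3045 bases for KGD1.

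None of the 9 enzymes passed the test for a change in footprints per mRNA between guide sets. The log2 change of the ratio was 0.12 ± 0.11 (SE) for IDH2, 0.08 ± 0.08 for FUM1, 0.07 ± 0.10 for KGD1, 0.06 ± 0.10 for IDH1, 0.06 ± 0.17 for ACO1, 0.02 ± 0.13 for KGD2, -0.02 ± 0.16 for MDH1, -0.04 ± 0.14 for CIT2 and -0.05 ± 0.10 for CIT1. By edgeR's interaction test over the 8 libraries, 0 of 9 passed, each with an adjusted p of at least 0.99999 and none with an unadjusted p under 0.05. DESeq2 called 0 of 9 and 0 genes in all. The edgeR test called 0.0% of all genes higher and 0.0% lower, with 105 of 5665 genes at an unadjusted p under 0.05, and 2 genes were called without targeted replicate 2. With the lysate as a block, 0.106% of all genes were called in either direction (6 of 5665), and again 0 of the 9 enzymes. IDH2 had the smallest p of the 9 in that blocked fit, at a log2 change of 0.12 ± 0.07 with edgeR adjusted p of 0.970. The median log2 change of the ratio was 0.06 over the 9 enzymes, beside 0.01 over all genes tested. The 95% intervals reached a fold of 0.777 for MDH1 and 1.35 for ACO1 and were narrowest for FUM1, at a fold of 0.930 to 1.20.

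Among the further genes examined, LYS20, a gene of lysine synthesis, passed the test between guide sets, and no further gene of the cycle did. Of 9 further genes of the cycle (CIT3, LPD1, KGD4, LSC1, LSC2, SDH1, SDH2, SDH3 and SDH4), 0 of 9 were called in mRNA or in footprints by edgeR or DESeq2, and 0 of 9 had an unadjusted p under 0.05 in either assay. SDH1 and SDH2, the flavoprotein and iron-sulphur subunits of succinate dehydrogenase, had the smallest p of these genes. Log2 differences of SDH1 were -0.11 ± 0.08 (SE) in mRNA and 0.09 ± 0.08 in footprints. Those of SDH2 were -0.13 ± 0.10 in mRNA and -0.15 ± 0.09 in footprints. Of 8 genes of enzymes that use or make 2-oxoglutarate or act in early lysine synthesis (GDH1, GDH2, GDH3, GLT1, LYS20, LYS21, LYS4 and LYS12), 1 of 8 was called higher in both assays. Over all genes tested, 0.368% were called higher in mRNA and 0.586% in footprints. An unadjusted edgeR p under 0.05 was reached by 2 of the 8 in mRNA and 3 of the 8 in footprints. This list was chosen with earlier results of these data known. LYS20, a homocitrate synthase that condenses 2-oxoglutarate with acetyl-CoA, had a log2 mRNA difference of 0.38 ± 0.06 with edgeR adjusted p of 0.0437 and a log2 footprint difference of 0.46 ± 0.07 with adjusted p of 0.0124. The mRNA call of LYS20 was lost under 6 of the 11 alternatives, with adjusted p up to 0.743 without control replicate 1, 0.306 without control replicate 2 and 0.115 without targeted replicate 1. Its footprint call was lost without control replicate 2 (adjusted p of 0.0808). DESeq2 called LYS20 in both assays and, in footprints, also LYS21, a second homocitrate synthase. How reads matching several genes were counted is not given, so values of LYS20 and LYS21 may hold reads of each other.

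No gene was called between guide sets among the 4 of the pyruvate dehydrogenase complex, which makes acetyl-CoA for the cycle, the 9 of the glyoxylate cycle and related isozymes (8 tested in footprints), the 9 mitochondrial carriers tested of 10, or the 8 regulators, and DESeq2 called none of them. An unadjusted p under 0.05 was reached by 2 glyoxylate and isozyme genes and 4 carriers in mRNA, and by 2 and 2 in footprints, beside 255 of 5712 genes in mRNA and 248 of 5461 in footprints. The pyruvate dehydrogenase subunits PDA1 and PDB1 differed by 0.01 ± 0.07 and 0.03 ± 0.06 in log2 mRNA and by 0.10 ± 0.07 and 0.08 ± 0.07 in log2 footprints. IDP1, the mitochondrial NADP-dependent isocitrate dehydrogenase, had log2 differences of 0.25 ± 0.06 in mRNA (edgeR adjusted p of 0.386, or 0.0349 with a crossed replicate block added after the data were seen) and 0.26 ± 0.07 in footprints (adjusted p of 0.221). PYC2, a pyruvate carboxylase that makes oxaloacetate, had log2 differences of 0.19 ± 0.07 in mRNA and 0.24 ± 0.07 in footprints. With targeted replicate 1 left out, edgeR called footprints of IDP1 (0.00172) and PYC2 (0.00102) higher by adjusted p, and with targeted replicate 2 left out those of IDP1 (0.0258) and OAC1 (0.0316). The oxaloacetate carrier OAC1 had 0.21 ± 0.07 and 0.21 ± 0.07, and the 2-oxodicarboxylate carrier ODC2 had 0.24 ± 0.08 and 0.16 ± 0.10, in mRNA and in footprints. RTG3, a retrograde transcription factor, had 0.04 ± 0.09 in mRNA and 0.21 ± 0.12 in footprints, and RTG2, which activates it, had -0.08 ± 0.06 and 0.00 ± 0.08. CIT2, the usual readout of these factors, is among the 9 genes above and did not pass. Median log2 footprint differences were 0.05 over the further cycle genes, 0.07 over pyruvate dehydrogenase, 0.03 over the glyoxylate and isozyme list, 0.11 over carriers and 0.08 over regulators, beside -0.0013 over all genes. In mRNA the medians were -0.08 over the further cycle genes, 0.02 over pyruvate dehydrogenase, 0.0011 over the glyoxylate and isozyme list, -0.02 over carriers and -0.01 over regulators, beside -0.0001 over all genes. The list of 2-oxoglutarate and lysine genes that holds LYS20 had the medians 0.18 in footprints and 0.10 in mRNA. In each assay 7 of its 8 genes were above 0, beside 49.965% of all genes tested in mRNA and 49.405% in footprints. That list was chosen with earlier results of these data known.

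Footprints per mRNA of the other lists were read against the same shares of all genes, 34.8% called above the average in targeted cells and 36.5% in control cells. Of the 9 further genes of the cycle, 8 were called above the average in targeted cells and 8 in control cells, with median log2 ratios of 0.67 in targeted and 0.64 in control cells. All 4 pyruvate dehydrogenase genes were called above the average in both, with medians of 0.63 in targeted and 0.59 in control cells. The glyoxylate and isozyme list was mixed, with 3 genes called above and 2 below the average in targeted cells and 3 above and 2 below in control cells. Those below were ICL1, the isocitrate lyase of the glyoxylate cycle, and IDP2, the cytosolic isocitrate dehydrogenase, singled out after their values were seen. IDP2 had 5 to 8 reads per footprint library, too few for the footprint test, and entered the ratio fits through its RNA reads alone, so that its call followed from the count filter. ICL1 had 12 to 25 reads per footprint library, and no ratio is given for either gene. Of the 8 regulators, 1 was called above and 3 below in targeted cells and 1 above and 4 below in control cells. Of the 9 carriers tested, 5 were called above and 2 below in targeted cells, and 5 above and 2 below in control cells. The 8 genes of the 2-oxoglutarate and lysine list had 5 above and 0 below in targeted cells, and 5 above and 2 below in control cells. The differences between these lists were not tested.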

How the data were processed

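RNA-seq and RIBO-seq libraries of yeast (4 groups of 2) were read from 1 table with a row per gene. Footprints came from lysate treated with RNase I, followed by recovery of monosomes on size exclusion columns and selection of fragments of 25 to 33 nt, per the labels' protocols. A portion of each lysate gave the RNA-seq library after rRNA removal, per the same protocols, whereas the labels' molecule field names polyA RNA for every library. Which of these holds for the RNA-seq libraries was not settled here. The submitters' processing notes name cutadapt, STAR and build R64. The counter, strand setting, tool versions and treatment of reads that match several genes were not given in the sources used here. Per gene, the authors deposited whole-number counts and RPKM, which are scaled to coding length and to a library total slightly above the summed counts. The deposited ratio equals the footprint RPKM over the RNA RPKM, each plus 0.01, for 100% of values within 1%.

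The tests on counts used edgeR 4.0.16 (R 4.3.3, limma 3.58.1) after checks on simulated counts: a two-sided quasi-likelihood test with TMM scaling and filterByExpr, with p-values adjusted by Benjamini-Hochberg over all genes tested and a threshold of 0.05. SE is the log2 difference over the square root of F. RNA, footprints and the ratio within a guide set were each fitted to 4 libraries, and the ratio change as an interaction over 8. DESeq2 1.42.0, other scalings and filters, blocks and leaving out each library were alternatives. Ratios in the text are recomputed from the deposited RPKM without the constant of 0.01. All 9 genes passed the count filter in every comparison.

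RNA and footprint libraries of a number and guide set come from 1 lysate per the labels' protocols. Their deviations from group means correlated with r of 0.537 in targeted and 0.325 in control cells over 3146 genes, so the lysate was a block in 1 alternative.

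Named genes are the 9 enzymes and, of each further list, genes past the threshold between guide sets, or else the 2 with the smallest p in RNA or footprints, plus the 5 genes most alike in profile. KGD4 was found in the table as YMR31 through its locus tag. Of the pathway lists, 1 gene is not reported here. The genes and lists were chosen with earlier results of these data known. Locus tags of 6013 genes matched the RefSeq R64 gene table. No sequences were used here.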

Additional observations from a re-analysis of the deposited data

How the results depend on the processing

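No alternative called any of the 9 enzymes between guide sets, except ACO1 and IDH2 in footprints without targeted replicate 1. That fit had 1 targeted library and also called more of all genes. The 8 enzymes above the average in footprints per mRNA stayed so under every alternative for both guide sets. Reversed signs concern differences and ratios that did not pass the test as reported, and their cause was not tested. With 2 libraries per group, the 95% intervals given above limit what can be said of small differences.

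With library size only, the median log2 mRNA difference of the 9 enzymes was -0.0706, and values were -0.026 for ACO1, -0.0274 for IDH1, -0.0706 for IDH2, -0.0609 for KGD1, -0.0554 for MDH1, -0.0631 for PDA1, -0.0495 for PDB1 and -0.0217 for RTG3. Under the same setting 20 genes were called in footprints, the enzymes' median log2 ratio was 1.67 in targeted and 1.55 in control cells, and the ratio change was 0.0109 for CIT1, 0.0265 for CIT2 and 0.0444 for MDH1. With at least 10 CPM in 2 libraries, IDH2 mRNA was -0.004, the median log2 ratio was 0.50 in targeted and 0.45 in control cells, and KGD1 was at -0.0529 in targeted and -0.119 in control cells. Without transposon rows, 13 genes were called in mRNA and the log2 ratio of KGD1 in control cells was -0.0035.

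Targeted and control libraries of a number share only that number, their deviations correlating with r of -0.1501 in RNA and -0.0943 in footprints. A replicate block on that number called 19 genes in mRNA and 60 in footprints (48 higher, 12 lower), and 0 of the 9 enzymes. A crossed replicate block for mRNA, chosen after seeing the data, called 71 genes (66 higher, 5 lower) and 0 of the 9, and of the other named genes it also called IDP1 (adjusted p of 0.0349). With the replicate block of the paired lysates, 6 genes were called for the ratio change. Blocking changed no call of the 9 enzymes.

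Leaving out each library in turn, genes called ranged from 0 to 21 in mRNA, from 43 to 159 in footprints and from 0 to 2 in the ratio change. The log2 mRNA difference ranged from -0.0537 to 0.0247 for CIT1, -0.225 to 0.0408 for CIT2, -0.077 to 0.161 for ACO1, -0.0001 to 0.0883 for IDH1, -0.06 to 0.0601 for IDH2, -0.0473 to 0.0723 for KGD1, -0.201 to 0.1297 for KGD2 and -0.152 to 0.178 for MDH1. It ranged from -0.0159 to 0.037 for PDA1, -0.0031 to 0.0516 for PDB1, -0.2492 to 0.0095 for SDH2 and -0.0071 to 0.103 for RTG3. In footprints, 0 to 2 of the 9 enzymes were called and their median ranged from -0.0529 to 0.102, with ranges of -0.143 to 0.0006 for CIT1, -0.0721 to 0.257 for ACO1, -0.0666 to 0.0427 for KGD2, -0.124 to 0.102 for MDH1 and -0.0423 to 0.0343 for RTG2. The median log2 ratio ranged from 0.52 to 0.70 in targeted cells, and KGD1 from -0.0006 to 0.0254 in control cells. The ratio change ranged from -0.097 to 0.146 for KGD2 and from -0.072 to 0.0543 for MDH1. A lone library left in a group was assumed to vary like the other group.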

Other observations

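The 9 enzymes shared only part of their profile over the 8 libraries. Against their own mean profile of log2 RPKM, centred within each assay, Pearson's r was 0.906 for KGD1, 0.854 for CIT1, 0.792 for KGD2, 0.778 for MDH1, 0.738 for IDH2, 0.646 for FUM1, 0.601 for ACO1, 0.516 for CIT2 and 0.417 for IDH1 (8 libraries, and each gene is part of the mean). Among 3137 genes ranked, those most like the mean profile were VMA1, a subunit of the vacuolar ATPase, with r of 0.988, KAR2, an Hsp70 of the endoplasmic reticulum, with 0.983, EMI2, a putative glucokinase, with 0.980, ATP2, the beta subunit of mitochondrial ATP synthase, with 0.979, and TPS1, of trehalose synthesis, with 0.976. RPKM of all genes move with the transposon share of a library. With normalised CPM in place of RPKM, an alternative added after the data were seen, the 5 genes most alike were GPH1, SSA2, TPS3, UGP1 and SSC1, with r of 0.988 for GPH1, and 0 of 5 were shared with the first list. CIT2 then had r of -0.456, against 0.287 to 0.950 for the other members. By RPKM, the share of other genes with a lower r than the member ran from 50.7% for IDH1 to 97.0% for KGD1. These are descriptions with 8 libraries.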
